A study of Rattus norvegicus with 9 samples.

Results

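The genes described here serve the thioredoxin system, the glutathione system and the antioxidant programme of the transcription factor NRF2, in the vestibular sensory epithelium of rats exposed to an ototoxic nitrile. Of 10 genes chosen by symbol (Txnip, Txnrd1, Hmox1, Nqo1, Gclc, Gclm, Gsr, Srxn1, Slc7a11 and Gpx1), 9 matched a symbol among the 32883 genes of the count table, and all 9 were kept by the filter on low counts, with 15517 genes kept in all. Srxn1 was not analysed here. The question was whether the rise of Txnip came with an antioxidant response. Male Long-Evans rats, described in the labels by strain and with no other genotype, drank water with 20 mM 3,3′-iminodipropionitrile (IDPN), a compound toxic to hair cells (HCs), for 3 weeks (IDPN-3wk) or 7 weeks (IDPN-7wk), and the control rats drank plain water. Each library held the pooled 2 utricles and 6 cristae of 1 rat, with 3 rats to a group. A common set of 3 controls, which included animals killed at each time, served both exposures, so the comparisons with control share their samples. The age of these rats is not given in the sources used here, and the labels give all 9 libraries the same batch. The titles also carry a code, whose meaning is not given in the sources used here. The 3 controls share 1 code that no exposed rat has, 2 IDPN-3wk rats share another, 2 IDPN-7wk rats share another, and the first rat of each exposed group has a common code, so code and exposure cannot be told apart in the comparisons with control.

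Thioredoxin and glutathione are the main carriers of reducing power in the cytosol. Thioredoxin reductase and glutathione reductase recharge them with electrons from NADPH, and TXNIP, the thioredoxin-interacting protein, binds reduced thioredoxin and also restrains glucose uptake. NRF2 is held in the cytosol by KEAP1 and degraded until oxidants or electrophiles modify KEAP1, after which it enters the nucleus, pairs with a small MAF protein and acts through antioxidant response elements (AREs) in genes such as Nqo1, Hmox1, Gclc, Gclm, Txnrd1, Srxn1 and Slc7a11.

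The stretches below are shown because they hold the letters through which NRF2 is known to act, close to the start of genes measured here. RefSeq promoter windows of 300 bases on build GRCr8 were found for 7 of the 10 genes, in 8 windows, and were searched on both strands for the ARE core TGACNNNGC and for the longer element TGANTCAGC, which overlaps the core where its N is a C. Txnip, Hmox1 and Gsr had no window in this table. The ARE core stood in 2 of the 8 windows, those of Txnrd1 and Gclm, against 12.1% of all 33469 promoter windows. In capitals is the core, which in both genes lies on the strand opposite to the gene, where it reads TGACAAAGC in Txnrd1 (at chr7:22755949-22756007, minus strand, 78 bases before the start) and TGACTAAGC in Gclm (at chr2:213031938-213031996, plus strand, 172 bases before the start).
Txnrd1: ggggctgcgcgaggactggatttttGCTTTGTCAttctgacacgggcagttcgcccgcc
Gclm: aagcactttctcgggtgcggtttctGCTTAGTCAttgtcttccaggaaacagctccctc
The longer element stood in 1 of the 8 windows, that of Srxn1, as TGAGTCAGC at 5 bases before the start, against 1.11% of all windows. The windows of Nqo1, Gclc, Slc7a11 and Gpx1 held neither set of letters. Sequence outside these 300 bases was not searched, so elements farther from the start would not be seen. Such matches describe the window and are not evidence of binding.

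Library totals ran from 31100118 to 46018385 estimated counts, and 3 counts, taken as the lowest visible level, corresponded to 0.0611 to 0.101 CPM (counts scaled to a common library size, here after TMM normalization). After thinning to a common depth, 15387 to 15498 genes were detected in 3 libraries (the control rat numbered 3 and the IDPN-3wk rats numbered 1 and 2) and 16834 to 17312 in the other 6, so the differences within each set are given for each of the 9 genes, on the log2(CPM + 2) scale. The set with fewer genes has 1 control and 2 IDPN-3wk rats, and the other has 2 controls and 1 IDPN-3wk rat. HC markers were present in every library, with a summed level of 2222 to 2733 CPM in control rats, 992.4 to 1332 at 3 weeks and 1031 to 1155 at 7 weeks. Of the 9 tested, 8 were lower at 3 weeks and 9 at 7 weeks. Without overlap with control, 7 and then 9 were lower, against 10.9% and 17.1% of all genes. By the rule for differential expression given below, 4 and then 7 passed as lower, against 1.21% and 3.13% of all genes. The supporting cell sum was 14160 to 14750 CPM in control, 8772 to 10790 in IDPN-3wk and 6388 to 8465 in IDPN-7wk rats. Otog alone had means of 8473, 4674 and 3533 CPM in these groups, so the sum follows this gene closely. All 8 supporting cell markers were lower at both times, 5 and then 8 without overlap with control, and 0 and then 3 passed as lower. The Schwann cell sum was 8552 to 10860, 6905 to 9168 and 2904 to 6185 CPM, with IDPN-7wk replicate 1 the lowest. In such bulk tissue, fewer cells of a type and less RNA per cell cannot be told apart, and the part of these shifts in the results below was not tested.

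A differentially expressed gene (DEG) had a Benjamini-Hochberg adjusted p under 0.05 in edgeR's quasi-likelihood test and a fold change above 1.5. By this rule Txnip was the only one of the 9 genes to rise at 3 weeks, and none fell. The rise of Txnip was known when the genes were chosen, so the counts below that include it are descriptive. At 7 weeks Txnip and Nqo1 rose and Slc7a11 fell, while Txnrd1, Hmox1, Gclc, Gclm, Gsr and Gpx1 did not pass. Of all genes tested, 0.438% were higher DEGs and 1.21% lower DEGs at 3 weeks, and 2.00% and 3.13% at 7 weeks. With groups that do not overlap as the rule, 3 of the 9 genes stood higher (Txnip, Nqo1 and Gpx1) and 0 lower at 3 weeks, against 8.78% and 10.9% of all genes. At 7 weeks 4 stood higher (Txnip, Nqo1, Hmox1 and Gpx1) and 1 lower (Slc7a11), against 17.2% and 17.1%. The median log2 fold change of the 9 genes was 0.15 at 3 weeks and 0.26 at 7 weeks, and that of all genes was -0.00047 and 0.0097. The absence of lower DEGs at 3 weeks was the same with DESeq2. At an unadjusted p under 0.05, 3 of the 9 genes were higher (Txnip, Txnrd1 and Nqo1) and 1 lower (Slc7a11) at 3 weeks, against 7.12% and 8.63% of all genes, and at 7 weeks 4 were higher (Txnip, Nqo1, Hmox1 and Gpx1) and 1 lower (Slc7a11), against 8.55% and 10.7%.

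**Figure D1:**
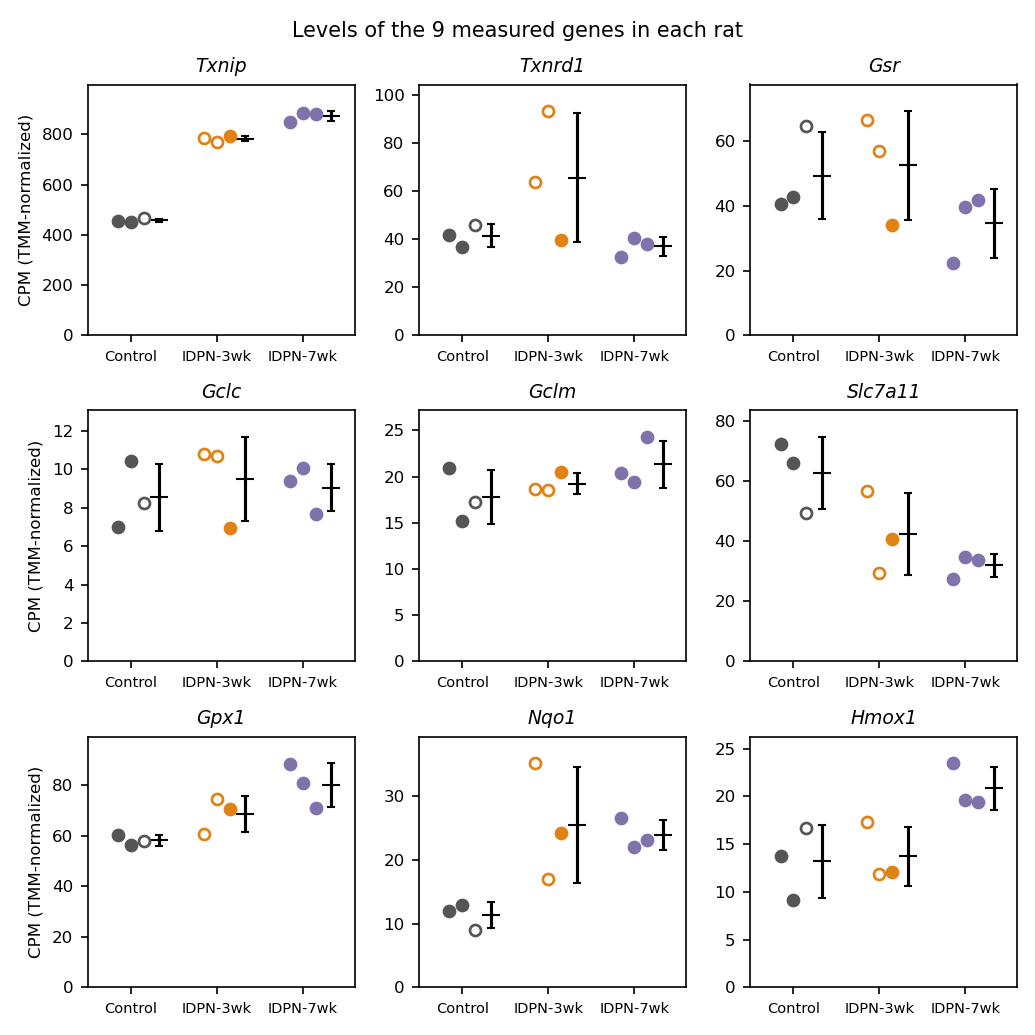
Level (CPM after TMM normalization, linear axes from 0) of each of the 9 genes in each rat by group, with open points for the 3 libraries with fewer genes detected and bars for the mean ± SD of 3 rats. Txnip forms tight separate groups near 458, 783 and 872 CPM, Slc7a11 and Nqo1 differ between control and IDPN-7wk rats, and Txnrd1 is high in the 2 open IDPN-3wk points only.

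Txnip (ENSRNOG00000021201) stood at 454, 453 and 466 CPM in the control rats, 787, 771 and 792 CPM in the IDPN-3wk rats and 851, 887 and 879 CPM in the IDPN-7wk rats. Every exposed rat was above every control, and the rats of a group lay close together. The level was 458 ± 7.27 CPM (SD, n = 3) in control, 783 ± 11.0 at 3 weeks and 872 ± 19.2 at 7 weeks. The rise was 1.71-fold at 3 weeks (log2 fold change 0.78, 95% interval 0.63 to 0.92, edgeR adjusted p = 0.000758) and 1.91-fold at 7 weeks (0.93, 0.78 to 1.08, adjusted p = 5.23e-05). By p-value Txnip ranked 1 among the higher DEGs at 3 weeks and 9 at 7 weeks. Its rise in these data was known when the genes were chosen. The rank and p-values therefore describe the rise and are no separate support for it. The rise was seen in both sets of libraries, where the difference at 3 weeks was 0.74 among the libraries with fewer genes and 0.80 among the others, and it was 0.94 at 7 weeks. All IDPN-7wk rats were also above all IDPN-3wk rats, by 0.16 on the log2 scale, a difference with an unadjusted p of 0.0404 that did not pass the adjustment (adjusted p = 0.336).

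Txnrd1 (ENSRNOG00000009088), the cytosolic thioredoxin reductase, stood at 41.7, 36.6 and 46.1 CPM in control, 63.8, 93.2 and 39.5 in IDPN-3wk and 32.8, 40.5 and 37.98 in IDPN-7wk rats. The first 2 IDPN-3wk rats were high and the last lay among the controls, and these 2 were also the IDPN-3wk libraries with fewer genes detected. Against control it differed by 0.66 on the log2 scale at 3 weeks (95% interval 0.08 to 1.23, adjusted p = 0.253) and -0.16 at 7 weeks (-0.74 to 0.41, adjusted p = 0.814). Within the sets the difference at 3 weeks was 0.72 among the libraries with fewer genes and 0.015 among the others. Without IDPN-3wk replicate 3 the value at 3 weeks rose to 0.92 and passed (adjusted p = 0.0392), and without IDPN-3wk replicate 2 it was 0.32. Txnrd1 had the ARE core in 1 of its 2 windows, and with all 9 libraries its level passed at neither time. Whether the ARE core bears on this level was not tested.

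Gsr (ENSRNOG00000014915), glutathione reductase, was measured at 40.6, 42.6 and 64.7 CPM in control, 66.4, 57.0 and 34.0 in IDPN-3wk and 22.3, 39.7 and 41.8 in IDPN-7wk rats. Its 3 highest values were those of the 3 libraries with fewer genes detected, whatever their group, and all groups overlapped. Log2 fold changes were 0.09 (95% interval -0.59 to 0.77, adjusted p = 0.929) at 3 weeks and -0.51 (-1.19 to 0.17, adjusted p = 0.418) at 7 weeks. Within the sets the difference at 3 weeks was -0.07 among the libraries with fewer genes and -0.28 among the others, both below 0.

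Gclc and Gclm encode the catalytic and the modifier subunit of glutamate-cysteine ligase, the rate-limiting enzyme of glutathione synthesis. Gclc (ENSRNOG00000006302) had 6.98, 10.4 and 8.24 CPM in control, 10.8, 10.7 and 6.95 in IDPN-3wk and 9.39, 10.1 and 7.67 in IDPN-7wk rats. For Gclm (ENSRNOG00000013409) the values were 21.0, 15.2 and 17.2 CPM in control, 18.7, 18.6 and 20.5 in IDPN-3wk and 20.4, 19.4 and 24.2 in IDPN-7wk rats. The 3 groups overlapped for both subunits. Gclc differed from control by 0.15 (95% interval -0.45 to 0.75) at 3 weeks and 0.08 (-0.52 to 0.68) at 7 weeks on the log2 scale, with adjusted p = 0.847 and 0.923. Gclm, the other gene with an ARE core in its window, differed by 0.11 (-0.29 to 0.51) and 0.26 (-0.14 to 0.66), with adjusted p = 0.821 and 0.501. Within the sets Gclc differed in sign at 3 weeks, with 0.31 among the libraries with fewer genes and -0.24 among the others, and Gclm had 0.10 and 0.18. The intervals reach above a 1.5-fold rise for both subunits at 7 weeks and for Gclc at 3 weeks.

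Slc7a11 (ENSRNOG00000010210), the cystine carrier xCT that brings in the cysteine needed for glutathione, went the other way. It stood at 72.6, 66.1 and 49.4 CPM in control, 56.8, 29.6 and 40.9 in IDPN-3wk and 27.5, 34.7 and 33.8 in IDPN-7wk rats. At 7 weeks all rats were below all controls, and at 3 weeks the first rat lay between the controls. The level was 1.96-fold lower at 7 weeks (log2 fold change -0.97, 95% interval -1.50 to -0.45, edgeR adjusted p = 0.0387) and the log2 fold change at 3 weeks was -0.56 (-1.08 to -0.04, adjusted p = 0.279). The call at 7 weeks was lost without control replicate 1, control replicate 2, IDPN-3wk replicate 3 or any IDPN-7wk replicate, with log2 fold changes of -0.85 to -1.03 and adjusted p from 0.0545 to 0.164. The 3-week difference was -0.25 among the libraries with fewer genes and -0.73 among the others. The HC and supporting cell sums were below control in all exposed rats, and the Schwann cell sum in all IDPN-7wk rats. At 3 weeks the Schwann cell sum overlapped control. The vestibular neuron sum was 104.1 to 119 CPM in control, 67.4 to 77.5 at 3 weeks and 62.4 to 78.5 at 7 weeks. Of its 6 markers, 3 were lower and 3 higher at 3 weeks, and 5 lower and 1 higher at 7 weeks. The part of these cells in the fall of Slc7a11 was not tested.

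Gpx1 (ENSRNOG00000048812), the cytosolic glutathione peroxidase, was measured at 60.5, 56.3 and 57.8 CPM in control, 60.8, 74.4 and 70.5 in IDPN-3wk and 88.2, 80.8 and 70.9 in IDPN-7wk rats. Every exposed rat was above every control, by a narrow margin in IDPN-3wk replicate 1. The log2 fold changes of 0.24 (95% interval -0.03 to 0.51, adjusted p = 0.382) and 0.46 (0.19 to 0.73, adjusted p = 0.0540) did not pass. The 3-week difference was 0.21 among the libraries with fewer genes and 0.27 among the others.

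Nqo1 (ENSRNOG00000012772), a quinone reductase and a much used readout of NRF2, stood at 12.0, 13.0 and 9.09 CPM in control, 35.2, 17.0 and 24.3 in IDPN-3wk and 26.6, 22.1 and 23.2 in IDPN-7wk rats. All exposed rats were above all controls, with a wide spread at 3 weeks. At 7 weeks the rise was 2.11-fold (log2 fold change 1.08, 95% interval 0.49 to 1.67, adjusted p = 0.0402), and at 3 weeks the log2 fold change was 1.17 (0.58 to 1.76, adjusted p = 0.0606), so the call differed between times but the levels did not differ detectably (log2 difference -0.09, adjusted p = 0.928). The call at 7 weeks was lost without any 1 of the 3 controls, without IDPN-3wk replicate 3 and without any 1 of the 3 IDPN-7wk rats, with log2 fold changes of 0.94 to 1.19 and adjusted p from 0.0557 to 0.152. It was also lost with the library set as a covariate (1.03, adjusted p = 0.0770). At 3 weeks Nqo1 passed without IDPN-3wk replicate 2 (1.39, adjusted p = 0.0291) and with DESeq2 (1.17, adjusted p = 0.00120). Within the sets it differed by 1.26 among the libraries with fewer genes and 0.86 among the others.

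Hmox1 (ENSRNOG00000014117), the haem oxygenase that macrophages also use to break down haem, stood at 13.7, 9.15 and 16.7 CPM in control, 17.3, 11.8 and 12.1 in IDPN-3wk and 23.4, 19.6 and 19.4 in IDPN-7wk rats. Control and IDPN-3wk rats overlapped and all IDPN-7wk rats were above both. Log2 fold changes were 0.06 (95% interval -0.51 to 0.63, adjusted p = 0.949) at 3 weeks and 0.66 (0.09 to 1.23, adjusted p = 0.190) at 7 weeks, and neither passed. The 3-week difference was -0.20 among the libraries with fewer genes and 0.09 among the others. Macrophage markers were also higher at 7 weeks. Their summed level was 77.4 to 133.9 CPM in control, 55.6 to 143.5 in IDPN-3wk and 233.3 to 303.2 in IDPN-7wk rats. At 3 weeks 4 of the 10 markers were higher and 6 lower. The sum was 143.5 CPM in IDPN-3wk replicate 2, where Hmox1 was 11.8, and 58.0 in replicate 1, where Hmox1 was 17.3. At 7 weeks 10 of the 10 markers were higher, 9 of them without overlap with control, against 17.2% of all genes. Of these 1 passed, against 2.00% of all genes (C1qb, a complement subunit, log2 fold change 1.70, adjusted p = 0.00958). Cx3cr1 and Cd163 were at 0 in an IDPN-3wk library, and the part of macrophages in the level of Hmox1 was not tested.

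**Figure D2:**
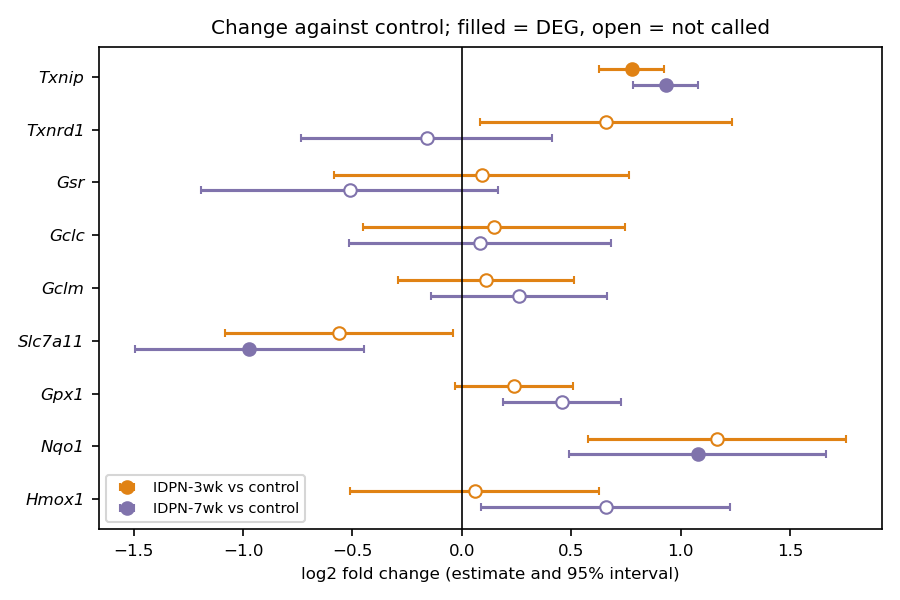
Log2 fold change against control (x axis) of each of the 9 genes, with points for the estimate and bars for the 95% interval of edgeR's fit, IDPN-3wk in orange and IDPN-7wk in purple, filled where the gene was a DEG. The Txnip intervals are the narrowest, at 0.63 to 0.92 and 0.78 to 1.08, Slc7a11 lies below 0 at both times, and the intervals of Gsr, Gclc and Gclm cover 0 at both times.

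Between the exposed groups, 0 of the 9 genes passed with edgeR in either direction, against 0.348% of all genes higher and 0.135% lower at 7 than at 3 weeks. At an unadjusted p under 0.05 there were 2 higher (Txnip and Hmox1) and 1 lower (Txnrd1), against 6.33% and 7.46% of all genes. The same 2 were higher without overlap, and 0 were lower without overlap, against 12.1% and 8.92% of all genes. The Txnrd1 difference was -0.82 (95% interval -1.40 to -0.24, adjusted p = 0.210), and it passed with DESeq2 (-0.83, adjusted p = 0.0489) and without IDPN-3wk replicate 3 (-1.08, adjusted p = 0.0292). Within the libraries with more genes detected it was -0.09.

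The other genes of these pathways were taken from 6 lists of 110 symbols, of which 107 matched and 106 were tested. At 3 weeks 3 of the 106 rose and 0 fell, which is 2.83% and 0% against the 0.438% and 1.21% of all genes. At an unadjusted p under 0.05, 21 were higher and 4 lower at 3 weeks (19.8% and 3.77%, against 7.12% and 8.63%) and 26 higher and 11 lower at 7 weeks (24.5% and 10.4%, against 8.55% and 10.7%). At 3 weeks the 7 called by DESeq2 all had positive log2 fold changes in edgeR. At 7 weeks 5 rose and 1 fell, 4.72% and 0.943% against 2.00% and 3.13%. Groups without overlap were more frequent, with 28 genes higher and 6 lower at 3 weeks (26.4% and 5.66%, against 8.78% and 10.9% of all genes) and 40 higher and 13 lower at 7 weeks (37.7% and 12.3%, against 17.2% and 17.1%). Their median was 0.15 at 3 weeks and 0.11 at 7 weeks on the log2 scale. Of these 106 genes 1 was a DEG at both times, Gstt2. Between the exposed groups 0 passed with edgeR and 4 with DESeq2. At an unadjusted p under 0.05, 9 were higher and 12 lower at 7 weeks (8.49% and 11.3%, against 6.33% and 7.46% of all genes).

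**Figure D3:**
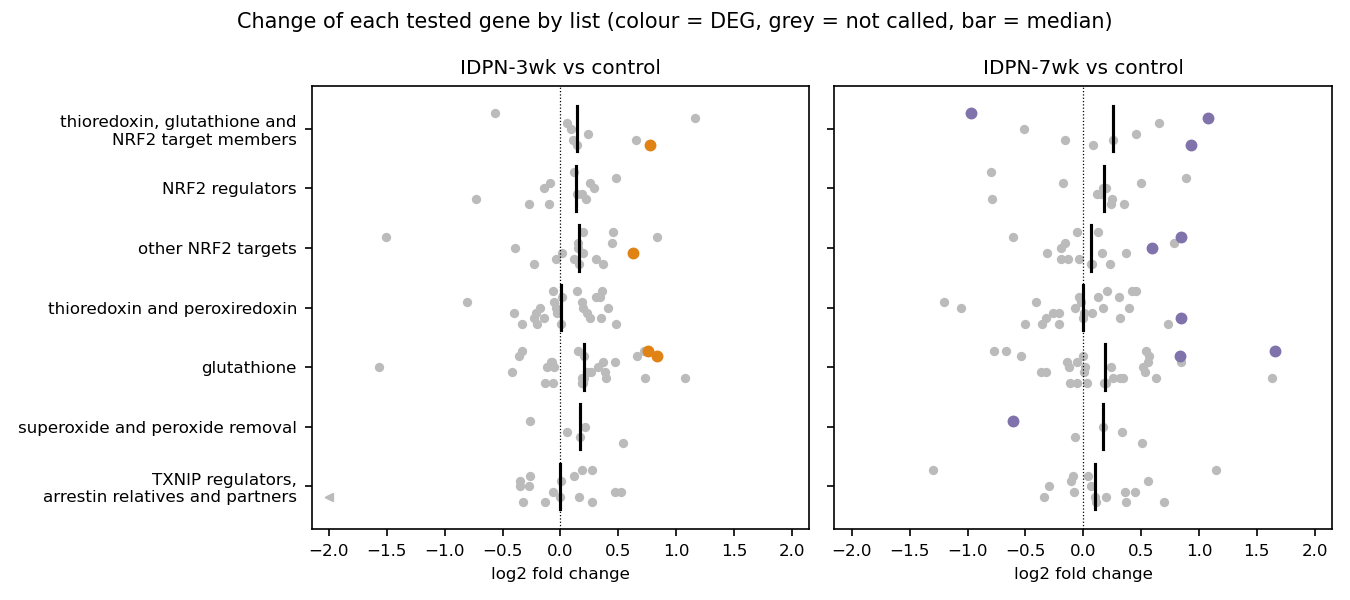
Log2 fold change against control (x axis) of each tested gene of the 7 lists (y axis) at 3 weeks (left) and 7 weeks (right), with DEGs in colour, other genes in grey and a bar at each list's median. Vertical spread within a list only separates points, and Il1b at 3 weeks, with -4.88 (adjusted p = 0.233), is drawn as a triangle at -2. The coloured points are few in each list, and the medians lie between -0.00084 and 0.26.

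None of the 12 NRF2 regulators passed at either time with edgeR or DESeq2. At an unadjusted p under 0.05 there was 1 higher at 3 weeks and there were 2 higher at 7 weeks (8.33% and 16.7%, against 7.12% and 8.55% of all genes). At the same cut 0 were lower at either time, against 8.63% and 10.7% of all genes. Nfe2l2, which encodes NRF2, stood at 136, 126 and 140 CPM in control, 173, 127 and 158 in IDPN-3wk and 157, 148 and 141 in IDPN-7wk rats, and the IDPN-3wk group overlapped the controls (log2 fold changes 0.19 and 0.15, adjusted p = 0.481 and 0.569). Keap1 differed from control by -0.09 and -0.17 (adjusted p = 0.784 and 0.529). NRF2 is controlled mainly through its degradation, so the level of its RNA is no direct measure of its activity. Sqstm1, the autophagy receptor that binds KEAP1, stood 0.50 above control on the log2 scale at 7 weeks (adjusted p = 0.00973), below the fold threshold of the DEG rule, and is named after its value was seen.

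Of the 17 other NRF2 targets tested, 1 rose at 3 weeks and 2 at 7 weeks (5.88% and 11.8%, against 0.438% and 2.00% of all genes). With edgeR or DESeq2, 0 fell at either time. At an unadjusted p under 0.05, 4 were higher and 0 lower at 3 weeks (23.5% and 0%, against 7.12% and 8.63% of all genes). At 7 weeks 5 were higher and 1 lower at that cut (29.4% and 5.88%, against 8.55% and 10.7%). Aldh3a1, an aldehyde dehydrogenase, stood at 277, 226 and 268 CPM in control, 473, 389 and 330 in IDPN-3wk and 283, 278 and 299 in IDPN-7wk rats. It was high in the IDPN-3wk rats only, and the IDPN-7wk rats were just above the controls (log2 fold change 0.63, adjusted p = 0.0423 at 3 weeks; 0.16, adjusted p = 0.586 at 7 weeks). The drop between the exposed groups did not pass (-0.47, adjusted p = 0.169), and the call at 3 weeks was lost without any 1 library other than IDPN-3wk replicate 3 (0.48 to 0.68, adjusted p from 0.0640 to 0.152), with only the groups compared (0.63, adjusted p = 0.119), with the library set as a covariate (0.54, adjusted p = 0.0777) and without the 3 libraries with fewer genes (0.39, adjusted p = 0.240). Within the sets the difference was 0.67 among the libraries with fewer genes and 0.40 among the others. Red blood cell markers were also highest at 3 weeks, with a summed level of 224.8 to 275.1 CPM in control, 318.9 to 403.9 at 3 weeks and 202.6 to 299 at 7 weeks. Among the IDPN-3wk rats, replicate 3 had the highest sum (403.9 CPM) and the lowest Aldh3a1 (330 CPM). Of the 6 tested, 5 were higher at 3 weeks. Without overlap with control 3 were higher, all globin entries (Hbb and both entries of Hba-a2), against 8.78% of all genes. At an unadjusted p under 0.05, 3 were higher, against 7.12% of all genes. With edgeR 0 passed, against 0.438% of all genes as higher DEGs. Slc4a1 was at 0 in a control and an IDPN-3wk library. The endothelial sum was also higher at 3 weeks (399.9 to 447.9 CPM) than in control (362.4 to 383.4), and it was 309.5 to 486.7 CPM at 7 weeks. Of the 6 endothelial markers tested, 5 were higher and 1 lower at 3 weeks. Without overlap with control 2 were higher and 1 lower, against 8.78% and 10.9% of all genes. The part of either cell type in the level of Aldh3a1 was not tested. Idh1, a cytosolic source of NADPH, stood at 121, 114 and 116 CPM in control, 115, 136 and 138 in IDPN-3wk and 184, 169 and 176 in IDPN-7wk rats. The IDPN-7wk rats were above all others, with a log2 fold change of 0.60 (adjusted p = 0.00517) that slipped under the fold threshold without control replicate 2 (0.58) or IDPN-7wk replicate 1 (0.56), with the library set as a covariate (0.57) and without the 3 libraries with fewer genes (0.58).

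Osgin1, an oxidative stress induced growth inhibitor, had 7.36, 7.49 and 8.50 CPM in control, 14.2, 16.5 and 11.1 in IDPN-3wk and 12.6, 14.3 and 14.9 in IDPN-7wk rats. All exposed rats were above the controls, by a like amount at both times. The log2 fold change of 0.84 passed at 7 weeks (adjusted p = 0.0471) but not at 3 weeks (0.84, adjusted p = 0.0867). Leaving out any 1 control or any 1 IDPN-7wk rat ended the call at 7 weeks (0.79 to 0.91, adjusted p from 0.0744 to 0.170), as did no filter on low counts (0.84, adjusted p = 0.0613).

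Of the 25 thioredoxin and peroxiredoxin genes tested, 0 passed at 3 weeks with edgeR or DESeq2. At an unadjusted p under 0.05, 3 were higher and 2 lower at 3 weeks (12% and 8%, against 7.12% and 8.63% of all genes). At 7 weeks 5 were higher and 5 lower at that cut (20% and 20%, against 8.55% and 10.7%). At 7 weeks 1 rose, Prdx1 (4%, against 2.00% of all genes). Txn1, thioredoxin itself and the partner of TXNIP, stood at 8.79, 9.05 and 7.29 CPM in control, 9.51, 6.43 and 8.49 in IDPN-3wk and 11.9, 10.8 and 10.4 in IDPN-7wk rats. The IDPN-7wk rats were above the controls without passing the test (log2 fold change 0.39, 95% interval -0.13 to 0.91, adjusted p = 0.415), and at 3 weeks the value was -0.04 (adjusted p = 0.963). Prdx1, a peroxiredoxin that removes peroxide with electrons from thioredoxin, stood at 251, 235 and 243 CPM in control, 324, 298 and 309 in IDPN-3wk and 578, 358 and 373 in IDPN-7wk rats. Its groups were stepwise and did not overlap, with IDPN-7wk replicate 1 far above the other two. Prdx1 rose by 0.85 on the log2 scale at 7 weeks (adjusted p = 0.0125), and its value at 3 weeks was 0.35 (adjusted p = 0.320). The value at 7 weeks was 0.59 without IDPN-7wk replicate 1, and the call was lost without control replicate 2 (0.82, adjusted p = 0.0554).

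Of the 30 glutathione genes tested, 2 rose at 3 weeks and 2 at 7 weeks (6.67% each time, against 0.438% and 2.00% of all genes). With edgeR 0 fell. At an unadjusted p under 0.05, 10 were higher and 1 lower at 3 weeks (33.3% and 3.33%, against 7.12% and 8.63% of all genes). At 7 weeks 10 were higher and 4 lower at that cut (33.3% and 13.3%, against 8.55% and 10.7%). DESeq2 called 0 lower at 3 weeks and, at 7 weeks, Gpx3 and Gstz1, which had log2 fold changes of -0.67 and -0.77 in edgeR (adjusted p = 0.0610 and 0.0691). Gstt2, a glutathione S-transferase that couples glutathione to electrophiles, stood at 26.7, 30.0 and 30.8 CPM in control, 57.1, 51.9 and 47.2 in IDPN-3wk and 55.5, 48.8 and 51.7 in IDPN-7wk rats. The exposed groups lay together and well above the controls, with a log2 fold change of 0.84 at 3 weeks (adjusted p = 0.0119) and 0.84 at 7 weeks (adjusted p = 0.00407). The call at 3 weeks was lost without control replicate 1 (0.78, adjusted p = 0.0639) or control replicate 2 (0.86, adjusted p = 0.0517), with only the groups compared (0.84, adjusted p = 0.0591) and without the 3 libraries with fewer genes (0.74, adjusted p = 0.0619), and the call at 7 weeks held without each library in turn. Gstm1, a transferase of the mu class, stood at 144, 134 and 136 CPM in control, 264, 210 and 224 in IDPN-3wk and 184, 203 and 216 in IDPN-7wk rats. Every exposed rat was above the controls, with a log2 fold change of 0.75 (adjusted p = 0.00863) in the IDPN-3wk and of 0.54 (adjusted p = 0.0141) in the IDPN-7wk group, the latter under the fold threshold. Without control replicate 2 the 3-week value was 0.73 with an adjusted p of 0.05005. Transferases of a class share much sequence, and how the counting divided reads among them is uncertain.

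Slc1a1, a carrier of glutamate that also takes up cysteine, had 4.58, 4.10 and 5.04 CPM in control, 6.49, 7.71 and 8.46 in IDPN-3wk and 12.3, 17.8 and 13.1 in IDPN-7wk rats. The groups rose stepwise without overlap. The rise at 7 weeks, with a log2 fold change of 1.66 (95% interval 1.10 to 2.21, adjusted p = 0.00387), passed without each library in turn, and the value at 3 weeks was 0.72 (adjusted p = 0.185). Slc1a1 and Slc7a11, both routes by which cells obtain cysteine, thus stood on opposite sides of control at 7 weeks.

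Of the 5 genes for removal of superoxide and peroxide, 0 passed at 3 weeks with edgeR or DESeq2. At 7 weeks 1 fell (20%, against 3.13% of all genes). At an unadjusted p under 0.05, 2 were higher and 0 lower at 3 weeks (40% and 0%, against 7.12% and 8.63% of all genes). At 7 weeks 2 were higher and 1 lower at that cut (40% and 20%, against 8.55% and 10.7%). Sod3, the superoxide dismutase secreted from cells, stood at 1164, 1132 and 1451 CPM in control, 1010.0, 1121 and 992 in IDPN-3wk and 721, 929 and 817 in IDPN-7wk rats. At 7 weeks all rats were below the controls (log2 fold change -0.60, adjusted p = 0.0170), and the value at 3 weeks was -0.26 (adjusted p = 0.332). The call was lost without control replicate 3 (-0.48, adjusted p = 0.0531), IDPN-7wk replicate 1 (-0.52, adjusted p = 0.0645) or IDPN-7wk replicate 3 (-0.60, adjusted p = 0.0707). It also fell under the fold threshold with the library set as a covariate (-0.52) and without the 3 libraries with fewer genes (-0.49). Cat, catalase, named after its value was seen, had a log2 fold change of 0.54 (adjusted p = 0.0328) at 3 weeks and 0.50 (adjusted p = 0.0205) at 7 weeks, both under the fold threshold.

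**Figure D4:**
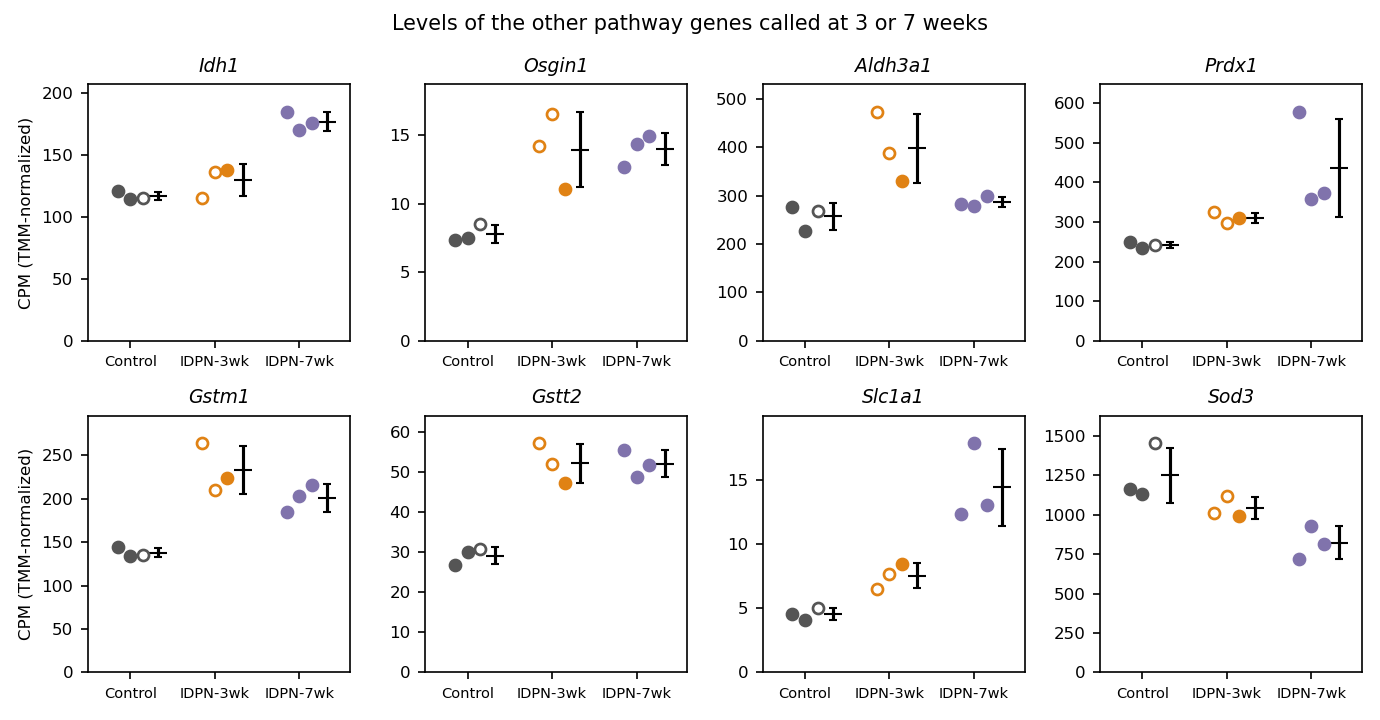
Level (CPM after TMM normalization, linear axes from 0) in each rat of the 8 other pathway genes that were DEGs at 3 or 7 weeks, with open points for the 3 libraries with fewer genes detected and bars for the mean ± SD of 3 rats. Gstt2 lies at 47.2 to 57.1 CPM in the exposed rats and 26.7 to 30.8 in controls, Prdx1 in IDPN-7wk replicate 1 stands apart at 578 CPM, and Sod3 is the gene that was lower.

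None of the 17 TXNIP regulators, arrestin relatives and partners passed with edgeR or DESeq2 at either time. At an unadjusted p under 0.05, 1 was higher and 1 lower at 3 weeks (5.88% each, against 7.12% and 8.63% of all genes). At 7 weeks 2 were higher and 0 lower at that cut (11.8% and 0%, against 8.55% and 10.7%). Arrdc4, the arrestin relative closest to Txnip and, like it, a target of the glucose-sensing factors of the MondoA and ChREBP family, had log2 fold changes of -0.35 (95% interval -0.74 to 0.04, adjusted p = 0.368) at 3 weeks and 0.07 (-0.32 to 0.45, adjusted p = 0.898) at 7 weeks. Arrdc4 passed at neither time, and whether these factors acted on either gene was not tested.

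The 5 genes whose log2 CPM followed Txnip most closely over the 9 libraries were Miip (Pearson r 0.984), Clic3 (0.978), Wfdc10a (0.975), Hapln2 (0.975) and Cavin2 (0.974). They were picked as the highest of all genes tested, and the 9 libraries fall into 3 groups, so these values describe the group differences. Clic3, a chloride channel family protein, had means of 21.1, 38.3 and 41.2 CPM in control, IDPN-3wk and IDPN-7wk rats, and Cavin2, a coat protein of caveolae, 119, 255 and 331 CPM. Miip, Wfdc10a and Hapln2 were low, with means of at most 2.19 CPM in every group, and Miip was at 0 in the controls.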

How the data were processed

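RNA was sequenced from the vestibular epithelium of 9 rats. Libraries were made with SMARTseq2, which amplifies full-length cDNA by PCR. Copies carry no molecular identifiers, so the true error exceeds counting error. The authors mapped reads with STAR 2.5.3a to Rnor6.0 and made the deposited table of estimated counts per gene with RSEM and the Rnor6.0.92 annotation, as whole numbers without normalization. RSEM divides reads between similar genes. The strand counted is not stated.

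The tools were DESeq2 1.42.0, edgeR 4.0.16 and limma 3.58.1 in R 4.3.3. Genes kept by filterByExpr (15517) were normalized by TMM and tested by edgeR's robust quasi-likelihood test fitted to all 9 libraries with 1 mean for each group (6 residual degrees of freedom, 4.07 prior), with Benjamini-Hochberg adjustment over all genes tested. The pipeline was tested on simulated data for the comparison of IDPN-7wk with control. By adjusted p it recovered 15 of 200 genes set to differ 1.5-fold, 133 of 200 at 2-fold and 187 of 200 at 3-fold. Genes called without a set difference numbered 1, 3 and 4. The 10 genes and all lists were chosen with earlier results of these data known. Genes named are the 10, the pathway genes called in any comparison, Nfe2l2, Keap1, Txn1, Prdx1 and Arrdc4, and the 5 genes most like Txnip. Sqstm1, Cat, Ephx1, Gpx3, Gstz1, Il1b and the marker genes were named after their values were seen.

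Groups come from the labels, and replicate numbers were assigned here. Each library is 1 rat. The closest replicates differed by a chi-square of 18.7 per gene, so none were merged. Alternatives were DESeq2, RLE size factors, no filter, a minimum of 10 counts per library, only the groups compared, the library set as a covariate, no fold threshold and each library left out. Added after the data were seen was a fit without the 3 libraries with fewer genes. Pgd, Ggt5 and Mlxipl matched no symbol and Selenow was not kept by the filter. Promoter letters are from RefSeq (GRCr8), and no position from it was set beside the counts.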

Additional observations from a re-analysis of the deposited data

Results flagged for a closer look

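Ephx1, the microsomal epoxide hydrolase and a known NRF2 target, differed between the exposure times. It stood at 455, 407 and 451 CPM in control, 595, 656 and 548 in IDPN-3wk and 403, 443 and 421 in IDPN-7wk rats. All IDPN-3wk rats were above all others, and the IDPN-7wk rats overlapped the controls. Its log2 fold change was 0.45 at 3 weeks, with an adjusted p of 0.0350 in edgeR, and -0.05 at 7 weeks, with an adjusted p of 0.834. The test of the difference gave -0.51 (95% interval -0.71 to -0.30, adjusted p = 0.0456), below the fold threshold of the DEG rule. The summed red blood cell markers were also higher at 3 weeks (318.9 to 403.9 CPM) than in control (224.8 to 275.1) or at 7 weeks (202.6 to 299). Among the IDPN-3wk rats, replicate 3 had the highest red blood cell sum (403.9 CPM) and the lowest Ephx1 (548 CPM). The endothelial sum was 399.9 to 447.9 CPM at 3 weeks, 362.4 to 383.4 in control and 309.5 to 486.7 at 7 weeks. The part of either cell type in the level of Ephx1 was not tested.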

How the results depend on the processing

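Txnip kept its direction and its call under all 16 alternatives that change its value, with log2 fold changes of 0.77 to 0.81 at 3 weeks (adjusted p from 5.98e-46 to 0.0199) and 0.92 to 0.95 at 7 weeks (2.68e-66 to 0.000967). With each library left out in turn, the number of the 9 genes called ran from 1 to 2 at 3 weeks, 1 to 3 at 7 weeks and 0 to 1 between exposures, and that of the other pathway genes from 0 to 5, 4 to 7 and 0 to 2. At 3 weeks 2 of the 9 genes were called with DESeq2, with no filter and with a minimum of 10 counts per library, the second being Nqo1. Between exposures DESeq2 called 1, Txnrd1. DESeq2 called 7, 11 and 4 of the other pathway genes in the 3 comparisons against 3, 6 and 0 with edgeR, and without the fold threshold edgeR called 5, 14 and 1. With only the groups compared, or without the 3 libraries with fewer genes, 1 was called at 3 weeks, and with at least 10 counts 1 between exposures. DESeq2 also called more of all genes at 3 weeks (250 higher and 567 lower, against 68 and 188), and the cause was not tested.

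Values near 0 turned. With the library set as a covariate, Hmox1 (-0.0586) and Gsr (-0.18) at 3 weeks, Txnrd1 at 7 weeks (0.0369) and Gclc between exposures (0.14) changed sign, as did, without the 3 libraries, Gclc (-0.32) and Gsr (-0.29) at 3 weeks and Gclc (0.38) and Gsr (0.0192) between exposures. With 1 library left out, the ranges were -0.15 to 0.26 for Hmox1 and -0.12 to 0.33 for Gsr at 3 weeks, -0.0450 to 0.25 for Gclc at 7 weeks, and -0.25 to 0.0401 for Gclc and -0.31 to 0.21 for Nqo1 between exposures. None of these was called. Hmox1 passed at 7 weeks only without the 3 libraries with fewer genes (0.86, adjusted p = 0.0323). No paired analysis was possible because the labels carry no replicate numbers and the code in the titles is shared across groups by 1 IDPN-3wk and 1 IDPN-7wk rat only, with none of the controls. The intervals of Gclc, Gclm and Gsr cover 0 in both comparisons with control and reach past a 1.5-fold change in at least 1, so for these genes the data do not tell such a change from none.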
